A study of Mus musculus with 6 samples.

Results

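The genes described here encode 8 proteins of the Hippo pathway that YAP is known to induce: Amotl1, Amotl2, Ptpn14, Frmd6, Wwc1, Ajuba, Lats2 and Nuak2. They were chosen by name as a feedback group, by a rule that uses no measured value but with earlier results of these data known, and are 8 of the 21883 protein-coding genes in the RefSeq table. Around each gene, every peak summit inside it or within 50 kb of its start or end was taken from 6 chromatin immunoprecipitation sequencing (ChIP-seq) libraries of mouse gastric corpus epithelium. Tumor mice had the genotype CluCreERT2;R26rtTA;HA-Yap+, that is, a tamoxifen-inducible Cre named for Clu, a reverse tetracycline transactivator named for the R26 locus and an HA-tagged Yap, and normal mice were WT. The labels list 2 mg tamoxifen on 5 days and doxycycline food for 14 days for every library, those of WT mice included, and they give no age. YAP was profiled in 2 libraries labelled tumor and 2 labelled normal, and H3K27ac, the acetylated histone found at active regulatory DNA, in 1 library labelled tumor and 1 labelled normal. The antibody is labelled as one against Yap, so tagged and endogenous protein cannot be told apart, and the labels do not tell whether the libraries of a group are from different mice.

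YAP is a coactivator without a DNA-binding domain that reaches DNA mainly through TEAD factors. The Hippo kinases LATS1 and LATS2 phosphorylate YAP and keep it out of the nucleus. Several genes induced by YAP encode proteins that restrain it again, which forms a negative feedback loop. Not every member works in that direction: AJUBA binds and inhibits LATS kinases, and NUAK2 is a kinase known from human cells to favor YAP activity.

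Each library is a list of 1 bp summits with the authors' score, a −log10 p-value or q-value, and ranks below are by that score within a list, with rank 1 the best. The YAP lists held 38268 and 53904 summits in tumor 1 and tumor 2, against 1654 and 2141 in normal 1 and normal 2, and the H3K27ac lists 66896 in tumor and 22574 in normal. Sequencing depth is unknown. Peak names contradict the labels of 2 YAP libraries: normal 2 shares its name word, Clu_Yap, with tumor 2 and tumor H3K27ac, and tumor 1 shares its word, cre, with normal 1 and normal H3K27ac. Normal 1 also stood apart by position: summits within 1 kb of the start or end of a protein-coding gene made up 30.3% of the list of tumor 1 and 24.3% of that of tumor 2, against 1.09% in normal 1 and 32.3% in normal 2. Each library is therefore called by its label, and every direction between YAP groups rests on those labels. As a check of the tissue, 12 of 13 gastric epithelial marker genes had a tumor H3K27ac summit in the gene or within 1 kb of it, against 12 of 13 in normal, with Gkn1 at 0 in tumor and Tff2 at 0 in normal. The squamous markers had such a summit at 4 of 5 genes in tumor, against 0 of 5 in normal, the immune markers at 3 of 6 against 1 of 6, the fibroblast and muscle markers at 6 of 7 against 3 of 7, and the endothelial markers at 3 of 3 against 1 of 3. With the tumor list shortened to the length of the normal list, the tumor numbers were 9 of 13 for gastric, 0 of 5 for squamous, 0 of 6 for immune, 2 of 7 for fibroblast and muscle and 2 of 3 for endothelial markers, and the part of these cells in the results below was not tested.

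The promoters of 4 members held a YAP site of both tumor libraries, meaning a tumor 1 summit matched one to one to a tumor 2 summit within 200 bp, and they are shown because the sites can be read against the DNA beneath them. Each runs 5′ to 3′ on the strand of its gene, from 250 bases before to 50 bases after the transcript start (RefSeq, GRCm38.p6). They are Amotl2 (chr9:102717554-102717853, plus strand), Ajuba (chr14:54577612-54577911, minus strand), Lats2 (chr14:57746074-57746373, minus strand) and Wwc1 (chr11:35980478-35980777, minus strand). Capitals mark the TEAD motif GGAATG, or CATTCC where it lies on the opposite strand. No match to the AP-1 motif TGANTCA was found in them.
Amotl2: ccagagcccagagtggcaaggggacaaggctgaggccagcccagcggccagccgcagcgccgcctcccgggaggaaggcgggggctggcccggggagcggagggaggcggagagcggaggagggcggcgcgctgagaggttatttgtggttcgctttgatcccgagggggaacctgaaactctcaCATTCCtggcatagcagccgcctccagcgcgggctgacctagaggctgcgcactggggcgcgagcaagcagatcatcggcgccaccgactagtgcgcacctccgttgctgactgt
Ajuba: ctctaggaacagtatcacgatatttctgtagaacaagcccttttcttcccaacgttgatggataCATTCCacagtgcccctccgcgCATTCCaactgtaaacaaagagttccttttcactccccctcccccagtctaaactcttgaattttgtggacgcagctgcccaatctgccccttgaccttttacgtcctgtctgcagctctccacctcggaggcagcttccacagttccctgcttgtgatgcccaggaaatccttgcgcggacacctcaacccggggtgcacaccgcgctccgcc
Lats2: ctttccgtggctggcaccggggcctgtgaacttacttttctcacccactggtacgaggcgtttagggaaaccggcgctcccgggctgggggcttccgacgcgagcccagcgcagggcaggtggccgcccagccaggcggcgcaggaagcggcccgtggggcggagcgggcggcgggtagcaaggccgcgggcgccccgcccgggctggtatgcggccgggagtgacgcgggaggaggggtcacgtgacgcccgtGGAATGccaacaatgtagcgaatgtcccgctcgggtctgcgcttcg
Wwc1: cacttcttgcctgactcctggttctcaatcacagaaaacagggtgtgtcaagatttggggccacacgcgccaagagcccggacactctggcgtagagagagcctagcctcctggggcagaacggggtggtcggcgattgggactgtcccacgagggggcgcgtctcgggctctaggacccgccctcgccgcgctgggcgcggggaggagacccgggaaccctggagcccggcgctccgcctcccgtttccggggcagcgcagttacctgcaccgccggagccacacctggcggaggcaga

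The Amotl2 promoter held 1 CATTCC, centered 62 bp upstream of the transcript start and 14 bp from the YAP site. The Lats2 promoter held 1 GGAATG, 7 bp downstream of the start and 36 bp from the site. Ajuba held 2 copies of CATTCC, 183 and 161 bp upstream, which lay 160 and 138 bp from its site. Wwc1 had none of these letters in the window. Of the other promoters in the table, that of Ptpn14 held 1 CATTCC, 143 bp upstream of the start and with no site of both tumor libraries in the window, while those of Amotl1 and Frmd6 and a second Lats2 promoter held none. In all, 4 of the 8 member promoters, which belong to 7 members, held the motif on either strand, against 13.6% of the 21262 promoters of protein-coding genes. Of the 4 member promoters that hold a site of both tumor libraries 3 had the motif, against 10.7% of the 5355 such promoters of protein-coding genes. The share over all 32851 promoters of the table was 14.7%. TGANTCA was in 0 of the 8 member promoters, against 6.99% of those of protein-coding genes, 7.81% of all promoters of the table and 4.72% of the protein-coding ones that hold a site. A match describes these letters only, and Nuak2 has no entry.

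YAP was found at every member in the libraries labelled tumor. All 8 had a site of both tumor libraries within 50 kb, as did 79.2% of all protein-coding genes, so this count alone says little about the group. The members held 50 of the 29491 such sites, with 8 each at Amotl2, Ptpn14, Ajuba and Nuak2, 7 at Wwc1, 6 at Amotl1, 3 at Lats2 and 2 at Frmd6. The median was 7.5 sites per member, against 5.0 over 39 other Hippo pathway genes and 3.0 over all genes. Per 100 kb of window the medians were 3.06 for the members, 3.06 for the other Hippo genes and 2.17 for all genes. The densest windows were those of Ajuba, Amotl2 and Nuak2, with 7.26, 6.88 and 6.82 sites per 100 kb, and the sparsest those of Lats2 and Frmd6, with 1.92 and 1.13.

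**Figure D1:**
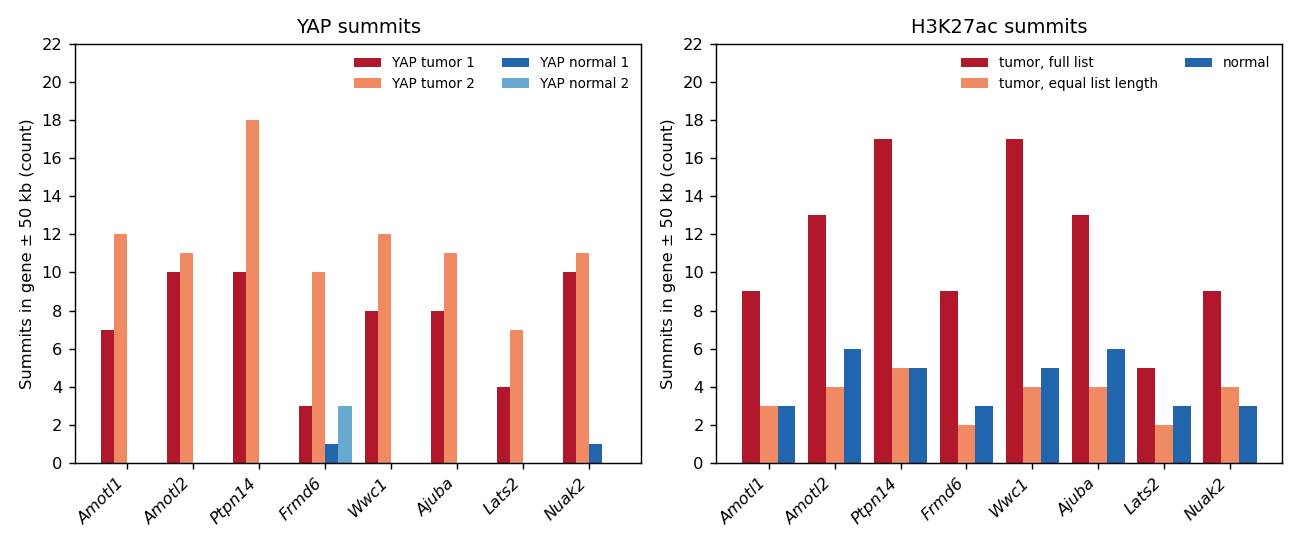
Summits per member in the gene plus 50 kb on each side, as counts per library, for YAP (left) and H3K27ac (right; the tumor list is shown in full and at the length of the normal list). Tumor YAP bars range from 3 to 18 summits, while normal YAP bars reach 3 at Frmd6 and 1 at Nuak2 and are 0 at the other members.

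In the libraries labelled normal, 5 YAP summits lay at the members, 4 of them at Frmd6. Only Frmd6 had a site of both normal libraries, as did 2.05% of all protein-coding genes, and by normal 1 alone 2 members had a site, Frmd6 and Nuak2. At 7 of 8 members each tumor library had more YAP summits than each normal library, and so did 79.2% of all protein-coding genes. Frmd6 was the exception, with 3 and 10 summits in tumor 1 and tumor 2, against 1 and 3 in normal 1 and normal 2, so that its groups met at 3. With the YAP libraries grouped by peak-name word, 0 members had more summits in each Clu_Yap library than in each cre library. Normal 2, with 2141 summits, would have to exceed tumor 1, with 38268, so this count says nothing about the members or the labels. The exact two-sided permutation test of 2 libraries against 2 gave p = 0.333 for each of the 7 members, the smallest value it allows, and p = 0.667 for Frmd6. Mean tumor counts ranged from 5.5 ± 2.12 at Lats2 to 14.0 ± 5.66 at Ptpn14 (SD, n = 2).

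Those counts come from lists of very different length. The members' windows took 15.7 and 17.1 of every 10000 YAP summits in tumor 1 and tumor 2, against 12.1 and 14.0 in normal 1 and normal 2. The exact 95% intervals, which cover counting error only, were 12 to 20.2 and 13.8 to 20.9 for the tumor libraries. Those of the normal libraries, 1.46 to 43.6 and 2.89 to 40.9, rest on 2 and 3 summits. All 4 overlapped, but the normal intervals are too wide to tell the groups apart. With all 4 lists at the length of the shortest, 1654 summits, the tumor libraries exceeded the normal libraries at 2 of 8 members, against 9.83% of all protein-coding genes. Amotl2 then had 1 and 1 summits in tumor 1 and tumor 2, against 0 and 0 in the normal libraries, and Ajuba had 1 and 3 against 0 and 0. At Frmd6 the order changed, with 2 and 1 in tumor 1 and tumor 2, against 1 and 3 in normal 1 and normal 2.

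**Figure D2:**
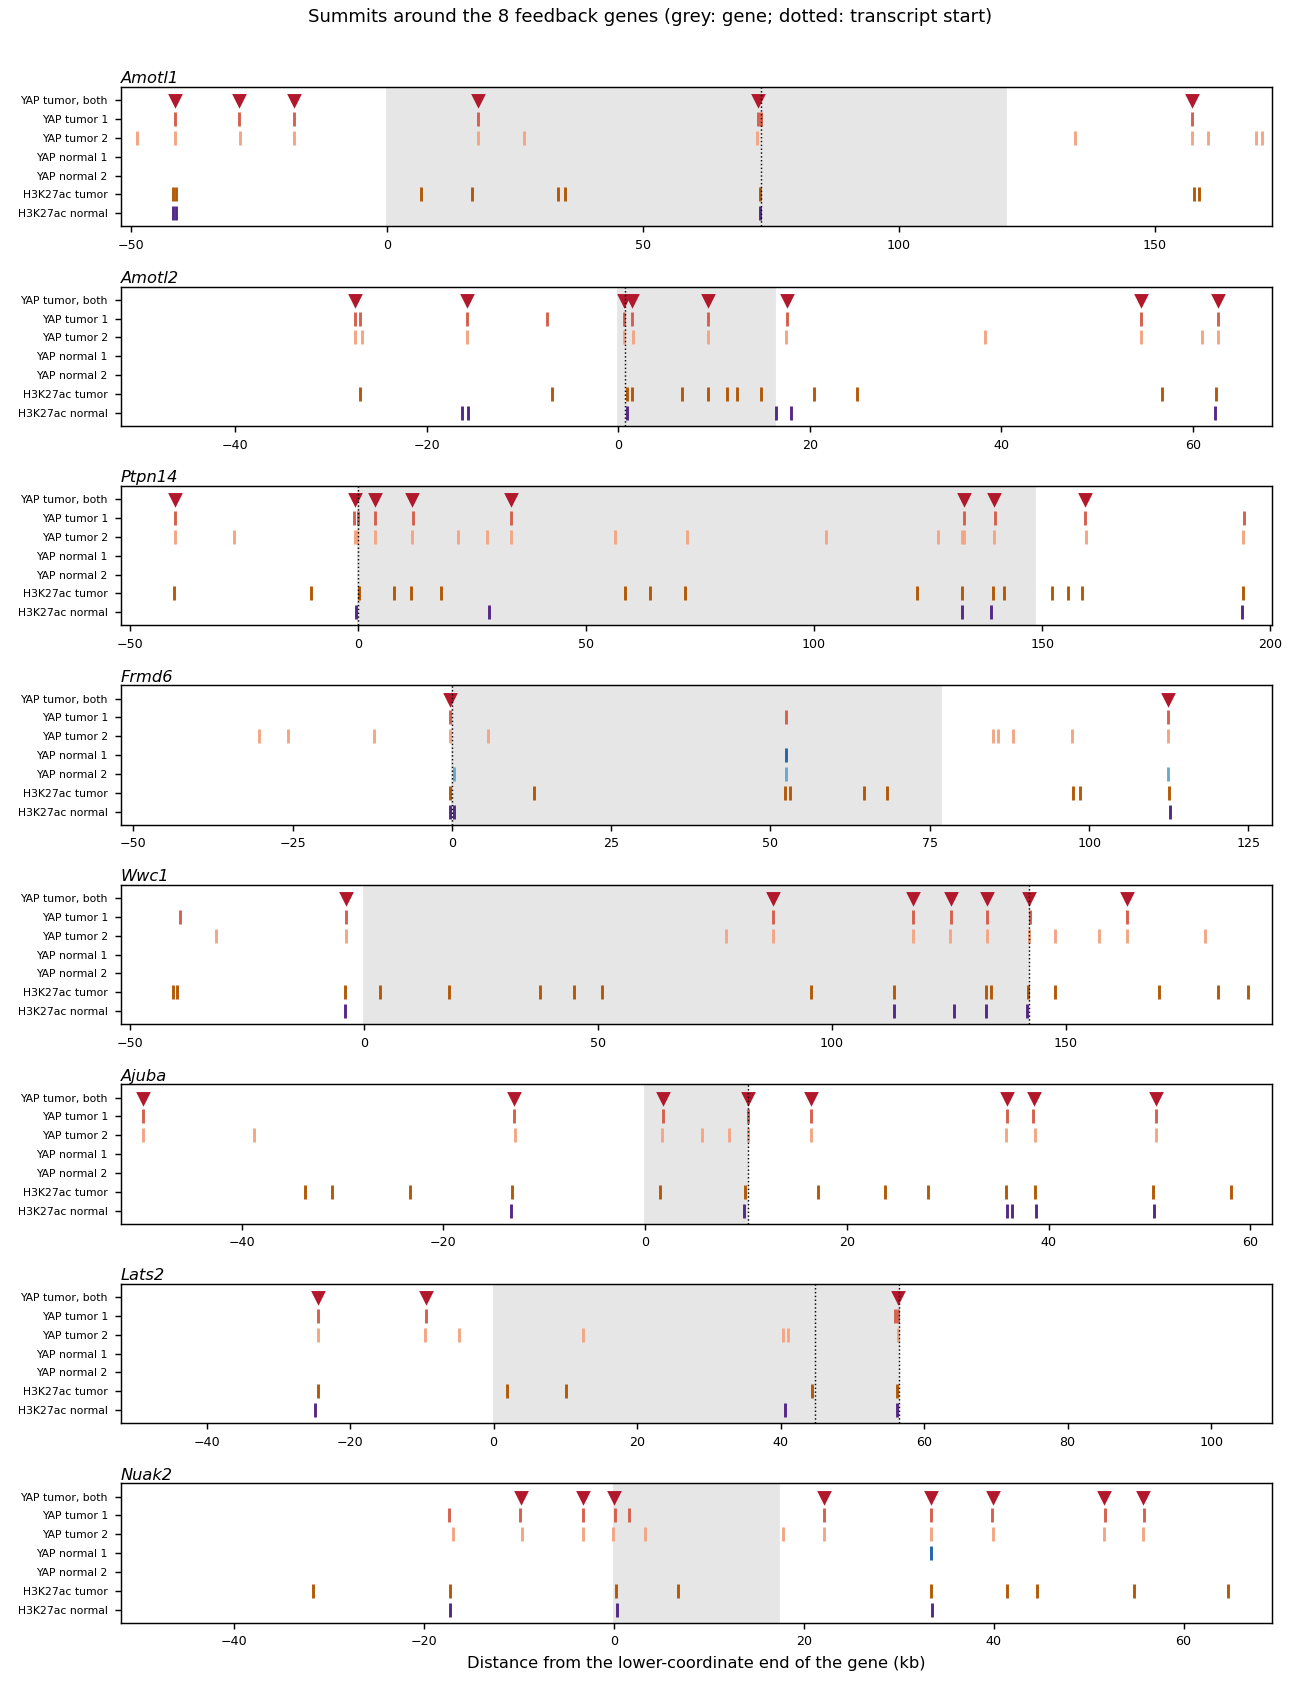
Positions of all summits around each member, as distance in kb from the lower-coordinate end of the gene; triangles are YAP sites of both tumor libraries, ticks are summits of single libraries, grey is the gene and dotted lines are transcript starts. Triangles stand at or beside a dotted line in all 7 genes that have one. The second line of Lats2 has none beside it, as its nearest site is 11662 bp away. The blue ticks of the normal YAP libraries appear at Frmd6 and Nuak2.

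Transcript starts were bound at the members and at most of their relatives. All 7 members with a promoter entry had a shared tumor site within 1 kb of a start, against 48.7% of the 17491 protein-coding genes with an entry. So had 5 of 6 paralogs (83.3%) and 24 of 31 other Hippo pathway genes (77.4%) with an entry. All 7 also had an H3K27ac summit within 1 kb of a start in both H3K27ac libraries, against 50.6% of those genes. Among the 8843 genes with such H3K27ac the share with a YAP site was 85.2%. At Nuak2, a site lay 26 bp outside the gene from its nearer end, with ranks 28755 and 22398 in tumor 1 and tumor 2. Within 1 kb of a gene end, 7 of 8 members had a shared tumor site (87.5%), against 46.5% of all protein-coding genes. So had 7 of 7 paralogs and 28 of 39 other Hippo pathway genes (71.8%). Amotl1 was the member without one. Its site nearest to a gene end lay 17797 bp from that end, and the transcript start used here lies inside the gene.

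The angiomotin family proteins AMOTL1 and AMOTL2 bind YAP and hold it at junctions and in the cytoplasm. Amotl2 (chromosome 9, 102717091 to 102733418) had 10 and 11 YAP summits in tumor 1 and tumor 2, against 0 and 0 in normal 1 and normal 2. Its promoter site, 76 bp upstream of the transcript start, ranked 1000 and 998, in the best 2.61% and 1.85% of the lists. That made it the best-ranked site of any member that lay closest to the member itself. Further sites inside Amotl2 lay 730 and 8656 bp downstream of the start. The inner site ranked 12623 and 4786 and had a tumor H3K27ac summit at 23 bp, against 7136 bp for the nearest normal H3K27ac summit. With the tumor list at the length of the normal list, its nearest tumor summit was 2741 bp away. The 5 sites outside Amotl2 reached from 28225 bp upstream of the start to 61907 bp downstream, and Amotl2 was the nearest protein-coding gene of all 8.

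Amotl1 (chromosome 9, 14541966 to 14662974) had 7 and 12 YAP summits in tumor 1 and tumor 2, against 0 and 0 in the normal libraries. The transcript start used here, at position 14615000 on the minus strand, lies inside the gene and not at its upstream end. That start was weakly marked: the tumor 1 summit 41 bp upstream of it ranked 36534. The site of both libraries lay 587 bp downstream with ranks 31377 and 29310, so 82.0% and 54.4% down the lists. The best-ranked site of its window, with ranks 5008 and 3957, lay inside Cwc15, a neighbor. A site 84267 bp upstream of that start, 36293 bp outside the gene and 2509 bp from Piwil4, ranked 3331 and 7146. It had a tumor H3K27ac summit at 318 bp, against 18858 bp in normal.

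PTPN14 is a phosphatase that binds YAP and lowers its activity. Ptpn14 (chromosome 1, 189728216 to 189876695) had 10 and 18 YAP summits in tumor 1 and tumor 2, against 0 and 0 in the normal libraries, the highest tumor 2 count of the members. At its transcript start the libraries placed their summits apart, 19 bp downstream in tumor 1 and 243 bp upstream in tumor 2, too far to count as 1 site. The nearest site of both lay 751 bp upstream and ranked 37793 and 15077. Inside the gene, the best-ranked of 5 sites lay 33458 bp downstream of the start, with ranks 6554 and 10365, and its nearest H3K27ac summits were 15217 bp away in tumor and 4789 bp away in normal. The site 11936 bp downstream had tumor H3K27ac at 400 bp, against 12348 bp in normal, but ranked only 35197 and 52946, and with the tumor list at the length of the normal list its tumor H3K27ac lay 11727 bp away.

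FRMD6 and WWC1 act upstream of the LATS kinases, and WWC1, also named KIBRA, does so together with NF2. Wwc1 (chromosome 11, 35838399 to 35980527) had 8 and 12 YAP summits in tumor 1 and tumor 2, against 0 and 0 in the normal libraries. Its promoter site, 86 bp upstream of the start, ranked 12568 and 10676. The best-ranked site lay inside the gene, 54739 bp downstream, with ranks 2159 and 5693, and had no H3K27ac summit within 1 kb in either library. The 3 further sites inside Wwc1 lay 24826, 16778 and 9013 bp from the start. Of these, the last had H3K27ac in both libraries, at 147 bp in tumor and 204 bp in normal.

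Frmd6 (chromosome 12, 70825456 to 70902234) had the fewest shared tumor sites. Its promoter site, 328 bp upstream of the start, ranked 1477 and 3657 in tumor 1 and tumor 2 (3.86% and 6.78% down the lists). The summit of normal 2 nearest to the start lay 320 bp downstream with rank 1343, 62.7% down its shorter list. The other site ranked 133 and 341, but it lay 29 bp from Actr10 and 35594 bp outside Frmd6, with a normal 2 summit 23 bp away. Inside Frmd6, tumor 1 had a summit at position 70877831 with rank 19834, 51.8% down its list. Normal 1 and normal 2 had summits 20 and 15 bp from it, at 70877851 and 70877846. Their ranks were 438 and 1093, so 26.5% and 51.1% down their shorter lists. In tumor 2 the nearest summit was 32508 bp from that of normal 1, so the place counted as a site of both normal libraries and not of both tumor libraries. A tumor H3K27ac summit lay 10 bp from the tumor 1 summit, and no normal H3K27ac summit lay within 1 kb. The tumor H3K27ac summit ranked 30939, beyond the 22574 summits of the normal H3K27ac list.

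LATS2 is one of the kinases that phosphorylate YAP. Lats2 (chromosome 14, 57689662 to 57746212) had 4 and 7 YAP summits in tumor 1 and tumor 2, against 0 and 0 in the normal libraries. Its promoter site, 43 bp downstream of the start, ranked 4829 and 4088 and lay inside both Lats2 and the overlapping gene Gm52140. The remaining sites were 24528 and 9466 bp outside the gene, the farther of them inside Xpo4.

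Ajuba (chromosome 14, 54567469 to 54577661) had 8 and 11 YAP summits in tumor 1 and tumor 2, against 0 and 0 in the normal libraries. Its promoter site, 23 bp upstream of the start, ranked 18566 and 19521, so it was of middle rank. All 8 sites of its window had a tumor H3K27ac summit within 1 kb, and 5 of 8 did with the tumor list at the length of the normal list. The top of the window belonged to neighbors: the site with ranks 476 and 264 lay 193 bp from Prmt5, that with ranks 2603 and 1403 lay 147 bp from Psmb5, and that with ranks 2957 and 1243 lay inside Haus4. The Prmt5 site was 49806 bp from Ajuba, just within the 50 kb limit, while the nearest site beyond the limit for any member was 51133 bp from Amotl2 with ranks 6250 and 8841.

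Nuak2 (chromosome 1, 132316125 to 132333488) had 10 and 11 YAP summits in tumor 1 and tumor 2, against 1 and 0 in normal 1 and normal 2. None of its 8 sites, taken at the midpoint of their summits, lay inside the gene, and 3 had Nuak2 as the nearest protein-coding gene. Summits of single libraries did lie inside, in tumor 1 at positions 132316199 and 132317700 and in tumor 2 at 132319392. The first of these is the tumor 1 summit of the site 26 bp outside the gene. A tumor site that ranked 7172 and 19741, so 18.7% and 36.6% down the lists, had the normal 1 summit at 22 bp. That summit had rank 518, which is 31.3% down its shorter list. H3K27ac summits lay 28 bp from the tumor site in tumor and 62 bp in normal. The best-ranked site, with ranks 4772 and 5397, lay 313 bp from Tmcc2.

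**Figure D3:**
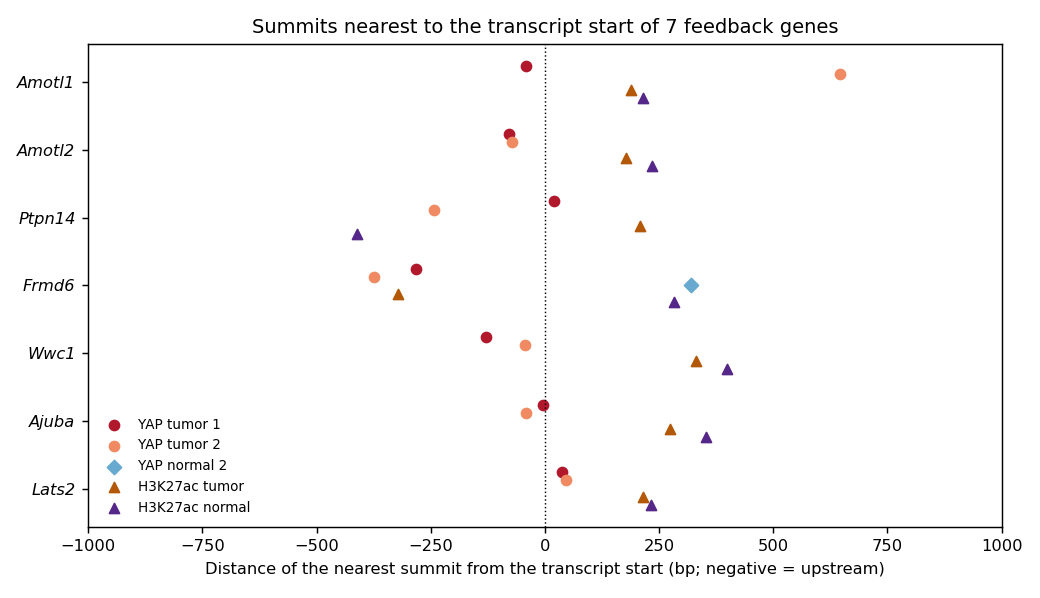
Distance in bp of the nearest summit of each library from the transcript start of 7 members (the more upstream start for Lats2), where it is under 1 kb; no normal 1 summit is that near. YAP summits of Amotl2, Wwc1, Ajuba and Lats2 lie between 129 bp upstream and 47 bp downstream of the start, and their H3K27ac summits between 177 and 398 bp downstream.

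In several windows the best-scored sites lay at neighboring genes. At 3 of 8 members (Amotl2, Frmd6 and Ajuba) the best-ranked site was in the best 10% of both tumor lists, against 33.1% of all protein-coding genes. By tumor 1 alone or tumor 2 alone it was 6 members in each case. A rule with 1 list is looser for every gene, and its share over all genes was not computed. In 5 of the 8 windows the best-ranked site was closest to another gene: Cwc15 for Amotl1, Cenpf for Ptpn14, Actr10 for Frmd6, Prmt5 for Ajuba and Tmcc2 for Nuak2. Over all 50 sites, 16 lay inside the member and 29 had the member as nearest gene or inside it, while 21 were closest to another gene. Over all protein-coding genes the windows held 76411 sites counted per gene, from 29491 sites, so windows of neighbors often share a site. How often a site in a window is closest to another gene was not computed over all genes, so these counts describe the members only. Of the 50 sites, 6 (12%) were in the best 10% of both lists, against 10.3% of all tumor YAP sites. Among the sites of the other Hippo pathway genes the share was 8.63%. Of the 6 member sites, 4 were closest to another gene, and the remaining 2 were the promoter sites of Amotl2 and Frmd6.

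**Figure D4:**
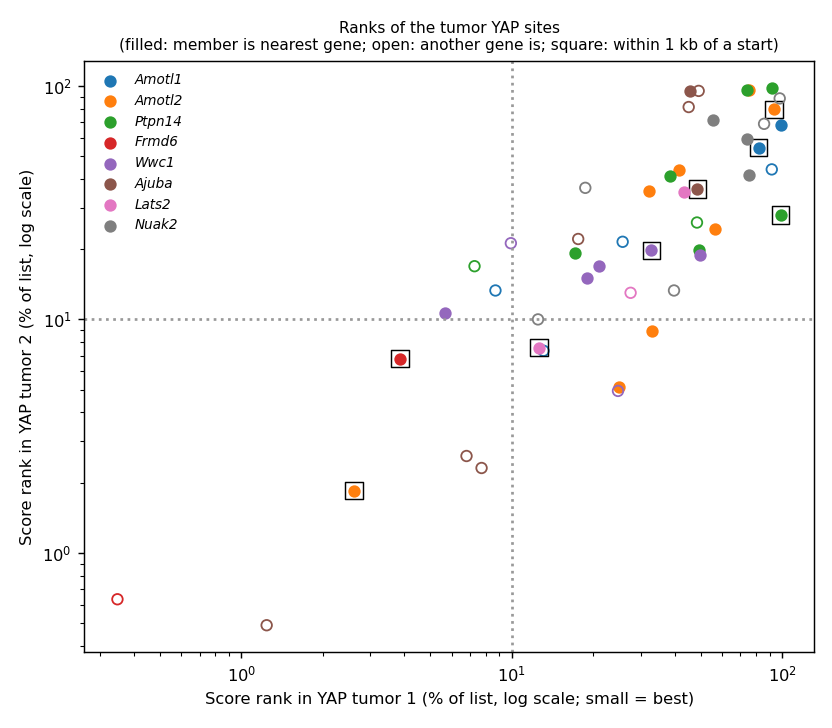
Score rank of each of the 50 sites in tumor 1 (horizontal) and tumor 2 (vertical) as percent of the list, on log scales, with small values the best; filled points have the member as nearest gene, open points another gene, and squares are within 1 kb of the member's transcript start. In the lower left corner, bounded by dotted lines at 10%, stand 2 filled points, of Amotl2 and Frmd6, and 4 open points.

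H3K27ac was found beside YAP at every member. All 8 had a tumor YAP site within 1 kb of a tumor H3K27ac summit, against 72.2% of all protein-coding genes. By site, 32 of 50 (64.0%) had tumor H3K27ac within 1 kb, against 52% of all tumor YAP sites. Both H3K27ac libraries had a summit there at 23 sites (46.0%, against 40.6% of all sites), the tumor library alone at 9 (18.0%, against 11.4%), the normal library alone at 3 (6.0%, against 6.8%) and neither at 15 (30%, against 41.2%). The 9 sites with tumor H3K27ac alone were split between Ptpn14 (3), Amotl2 (2), Ajuba (2), Amotl1 (1) and Nuak2 (1), and 4 of them were nearest to the member. With the tumor list at the length of the normal list, 4 of 50 sites (8.0%) had tumor H3K27ac alone, against 3.91% of all sites, and 6 (12%) had normal H3K27ac alone, against 12.1%.

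Between tumor and normal, the number of H3K27ac summits at the members depended on the list length. In the full lists all 8 members had more summits in tumor than in normal, as did 81.3% of all protein-coding genes, with 17 and 5 at Ptpn14, 17 and 5 at Wwc1, 13 and 6 at Amotl2, and 5 and 3 at Lats2. The tumor list is 2.96 times as long as the normal list. At equal length Nuak2 was the only member with more in tumor, 4 against 3 in normal (25.6% of all genes had more in tumor). Amotl1 and Ptpn14 had equal numbers, and the remaining 5 had fewer in tumor (36.9% of all genes had fewer), with 4 and 6 at Amotl2, 4 and 6 at Ajuba, 4 and 5 at Wwc1, 2 and 3 at Frmd6 and 2 and 3 at Lats2. There is 1 H3K27ac library per group, so these differences of 1 or 2 summits have no replicate check. The libraries come from bulk epithelium, where a summit in few cells and a weak summit in many cells cannot be told apart.

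At the transcript starts, with the more upstream one used for Lats2, H3K27ac stood within 412 bp in both libraries for all 7 members with an entry. At Amotl2 the nearest tumor summit lay 177 bp downstream of the start with rank 875, and the nearest normal summit 235 bp downstream with rank 334. At Lats2 the summits lay 215 and 232 bp downstream in tumor and normal, with ranks 2018 and 1901. Of these starts, that of Ajuba had the lowest-ranked H3K27ac, 274 bp downstream with rank 10584 in tumor and 352 bp downstream with rank 15141 in normal. At the second Lats2 start the nearest summits ranked lower still. They lay 426 bp downstream with rank 63499 in tumor and 4203 bp downstream with rank 19020 in normal. Ranks come from lists of different length, so they cannot show whether H3K27ac changed between tumor and normal.

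The closest paralogs of the members were bound as well. Lats1 had 4 and 4 YAP summits in tumor 1 and tumor 2, against 0 and 0 in the normal libraries, and Lats2 had 3 shared sites where Lats1 had 4. Ptpn21 had 7 shared sites, Wwc2 6, Limd1 5, Wtip 4, Amot 2 and Nuak1 2, and the RefSeq table gave no match for Frmd1. The best-ranked site was in the best 10% of both lists at 1 of 7 paralogs, Limd1 (14.3%, compared with 33.1% of all genes). The lowest-ranked were those of Amot, in the best 37.9% and 32.9% of the lists, and Nuak1, in the best 47.5% and 21.4%. The lists of members and paralogs were not tested against each other.

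Of 39 other Hippo pathway genes in the table, 37 had such a tumor site (94.9%, compared with 79.2% of all genes), and Fat4 was among those with none. The best-ranked sites were in the windows of Limd1, a LIM protein gene of the same family as Ajuba (best 0.0601% and 0.0315% of the lists), Taok3 (0.264% and 0.213%), Mob1a (1.54% and 1.48%), Slmap (2.04% and 2.07%), Strn (2.0% and 2.73%) and Rassf1 (3.16% and 2.08%). Those of Mob1a and Strn lay inside the gene, and the other 4 outside it. TAOK3 is a kinase, MOB1A the coactivator of the LATS kinases, and SLMAP and STRN belong to the phosphatase complex that opposes the Hippo kinases. Limd1 was also the only gene of this list with a site of both normal libraries. In 39 of 39 each tumor library had more summits than each normal library, and in 12 of 39 the best site was in the best 10% of both lists.

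Other genes had nearly the same summit counts as the members. Likeness was measured over the 6 libraries as the distance between log2 of 1 plus the summit counts, for the 4 members that tied at 8 sites. Herpud1 had the same counts as Amotl2 in all 6 libraries and H1f0 the same as Ajuba (distance 0.0 each). The next closest were Nrsn2 (0.1), H4c18 (0.11), Snapin (0.11) and Atp6v1g2 (0.14) for Amotl2, and Asprv1 (0.1), Acss2 (0.11), Card9 (0.13) and Atp6v1g2 (0.15) for Ajuba, with 8 genes at or below the last of these distances in each case. Ptpn14 was closest to Pdzd2 (0.18), Nfatc1 (0.21), C1qtnf1 (0.22), Ano1 (0.26) and Tom1l2 (0.27), and Nuak2 to Fancc (0.18), Tmcc2 (0.34), Cbr1 (0.35), Nagpa (0.4) and Nfyc (0.47). Tmcc2 lies beside Nuak2, so their windows share summits.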

How the data were processed

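The authors deposited 1 list of peak summits per library, whose score is −log10 of a p-value or of a q-value, with no source for the choice. Bowtie2, MACS2 and GRCm38 (mm10) are named per the submitters' processing notes. Tool versions, peak thresholds and any input library were not given in the sources used here. Samples were grouped by title. The members and lists were chosen with earlier results of these data known. Named genes are the members, their paralogs, the 6 best-ranked and the unbound genes of the other Hippo list, and the nearest 5 genes by summit counts of the members with most sites. A gene that this rule would name is not reported here.

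Summits on autosomes, X and Y were counted in each gene plus 50 kb, and YAP summits of a pair of libraries within 200 bp were matched one to one, at the midpoint. Genes and promoters came from RefSeq GRCm38.p6, in which 39 of 40 listed Hippo genes matched. Exons, motifs at sites outside promoters and protein motifs were not analysed here. Matching and counting were tested on simulated lists. Python 3.11.15, numpy 2.4.6, pandas 2.3.3, scipy 1.17.1 and matplotlib 3.10.9 were used. With depth unknown, comparisons were repeated on lists of 1 length. The YAP libraries of a group shared 0 summits of identical position and score. With no separate animals named, p-values cover the spread among these libraries alone, and that spread may be technical. Positions relative to transcript starts were added after the data were seen.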

Additional observations from a re-analysis of the deposited data

How the results depend on the processing

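Counts of members were recomputed with other windows, score minimums, matching distances and list lengths, and 58 of 76 recomputed counts stayed within 1.5 times their value. For most of these settings the share over all protein-coding genes was not recomputed. The counts therefore cannot be called high or low for the members. A tumor YAP site of both libraries was present at 3 members when the tumor lists had the length of the longer normal list (2141 summits), and at 1 when peak-name words set the YAP groups. Under that grouping 0 members had more YAP summits in each library with the tumor word than in each with the normal word. The list lengths left little room for any other outcome. A site of both libraries with the normal word was at 2 members. With all 4 YAP lists at equal length, more summits in each tumor library were left at 2 members. Paired by replicate number (the replicate block), which the labels do not tie to an animal or batch, tumor exceeded normal in both pairs at 8 members, compared with 7 unpaired, and leaving out each YAP library gave 7 to 8. A site of both normal libraries was at 0 members at a score of at least 10. Leaving out each normal library gave 1 to 2, where the 2 were Frmd6 and Nuak2 in normal 1 alone. The best site was in the best 10% at 1 member inside the gene only and in the best 20% at 8, and leaving out each tumor library gave 6 in either case, from 3 with both. A site near a transcript start was present at 4 members at a score of at least 10 and at 1 with the shortened tumor lists, from 7. More H3K27ac in tumor was found at 0 members within 10 kb and by nearest gene, at 2 with score minimums of 5 and 10, and at 8 with full lists. The sign of the H3K27ac difference turned with full lists at Ajuba and Amotl2 (7 each), Frmd6 (6), Lats2 (2) and Wwc1 (12), at Ajuba with a score of at least 10 (1), and at Amotl2 inside the gene (2). Shortened lists hold fewer summits by construction, but this does not fix the sign of a difference. Why the sign turned was not tested. Depth is unknown, and what sets the number of summits in each list was not tested.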
